A study of Bos taurus with 14 samples.

Results

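The nuclear genes of the respiratory chain were followed through bovine embryonic stem cells, blastocysts and skin fibroblasts. Members were chosen by gene symbol: every name starting with NDUFA, NDUFB, NDUFC, NDUFS, NDUFV, UQCR or ATP5, the genes SDHA, SDHB, SDHC and SDHD, and the COX4 to COX8 subunits, without the NDUFAF assembly factors and without copies that carry a numbered suffix. This gave 79 genes: 73 of the 23159 features used in the controls and at passage 10, 63 of the 24590 features used at later passages, and 57 in both. The stem cells, CTFR-bESC, were derived from bovine blastocysts and kept on mouse embryonic fibroblast feeders in a basal medium without growth factors, to which FGF2 and IWR1, an inhibitor of WNT signalling, were added. Each of 2 lines gave 5 RNA libraries: passages 10, 13, 23, 35 and 45 for line A, and 10, 12, 24, 35 and 46 for line B. For control, 2 pools of 10 intact in vivo blastocysts and 2 skin fibroblast lines were sequenced. Passages of 1 line are serial samples of 1 culture, and all p-values measure the spread between these libraries.

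The respiratory chain passes electrons from NADH and succinate to oxygen and stores the energy as a proton gradient across the inner mitochondrial membrane. Complex I oxidises NADH, complex II oxidises succinate, complex III passes electrons from ubiquinol to cytochrome c, complex IV hands them to oxygen, and complex V, the ATP synthase, uses the gradient to make ATP. Most subunits are encoded in the nucleus and a few core subunits in the mitochondrial genome, and some nuclear subunits have isoforms used in particular tissues, such as muscle or testis. Primed pluripotent cells are known for a metabolism that leans on glycolysis, and the blastocyst for active oxidative phosphorylation in its outer layer, the trophectoderm.

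Of the 79 genes, 37 belonged to complex I, 4 to complex II, 8 to complex III, 14 to complex IV and 14 to complex V. ATP5S and ATP5SL carry the ATP5 prefix without being subunits of the enzyme; their current RefSeq names are DMAC2L and DMAC2, and DMAC2 is a complex I assembly factor. COX4I1, COX4I2, COX5A, COX6A2, COX6B1 and COX6B2 had values only at later passages. COX8B, SDHD, ATP5H, ATP5I, ATP5L, ATP5O, UQCRH and UQCR11 were among the genes with values only in the controls and at passage 10. The ATP5 symbols are older ones: RefSeq (assembly ARS-UCD2.0) now lists ATP5A1 as ATP5F1A, ATP5B as ATP5F1B and ATP5G1, ATP5G2 and ATP5G3 as ATP5MC1, ATP5MC2 and ATP5MC3.

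The values were RPKM, reads scaled to gene length and to the library's mapped reads, without read counts, so depth in reads is unknown. Low values gave a relative depth of 1.0 to 1.557 times that of fibroblast line 1 in the controls and at passage 10, and of 0.71 to 1.027 times that of line A at passage 13 later. In the blastocyst pools 2 features took 65.8% and 64.0% of all RPKM, which lowers every other RPKM there. Each library was therefore multiplied by 1 factor, from the median ratio over 5448 names, and levels below are these scaled RPKM. The multipliers were 2.32 and 2.27 in the blastocysts and 0.768 to 1.024 elsewhere. Pluripotency markers summed to 621 and 523 scaled RPKM at passage 10 and to 0.5 and 2.1 in the fibroblasts; 10 fibroblast markers summed to 6045 and 6172 in the fibroblasts and 94.1 and 210.0 at passage 10; trophectoderm and hypoblast markers were high in the blastocysts. The labels thus matched their markers, with fibroblast markers present in the stem cells and nearly absent from the blastocysts, at 6.7 and 7.4.

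By its median scaled level the chain stood highest in blastocysts and lowest in the stem cells at passage 10. The median level of the 73 genes was 99.3 and 82.7 scaled RPKM in the blastocyst pools, 70.9 and 57.5 in the fibroblast lines, and at passage 10 it was 43.7 for line A and 55.1 for line B. As a share of all RPKM outside the 2 most abundant features, they took 3.73% and 3.23% in blastocysts, 1.69% and 1.56% in fibroblasts and 1.61% and 1.74% at passage 10, so by share fibroblasts and stem cells overlapped. With those features included the blastocyst shares were 1.28% and 1.16%, below those of the other 4 libraries, so the order of the 3 groups rests on the scaling. Complex V genes had the highest median levels of the 5 complexes in every one of these libraries, 301 and 303 in blastocysts, 186 and 160.2 in fibroblasts and 111 and 121 at passage 10. Complex II genes had 107 and 109, 111 and 84.0, and 40.0 and 54.8 in the same order.

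**Figure D1:**
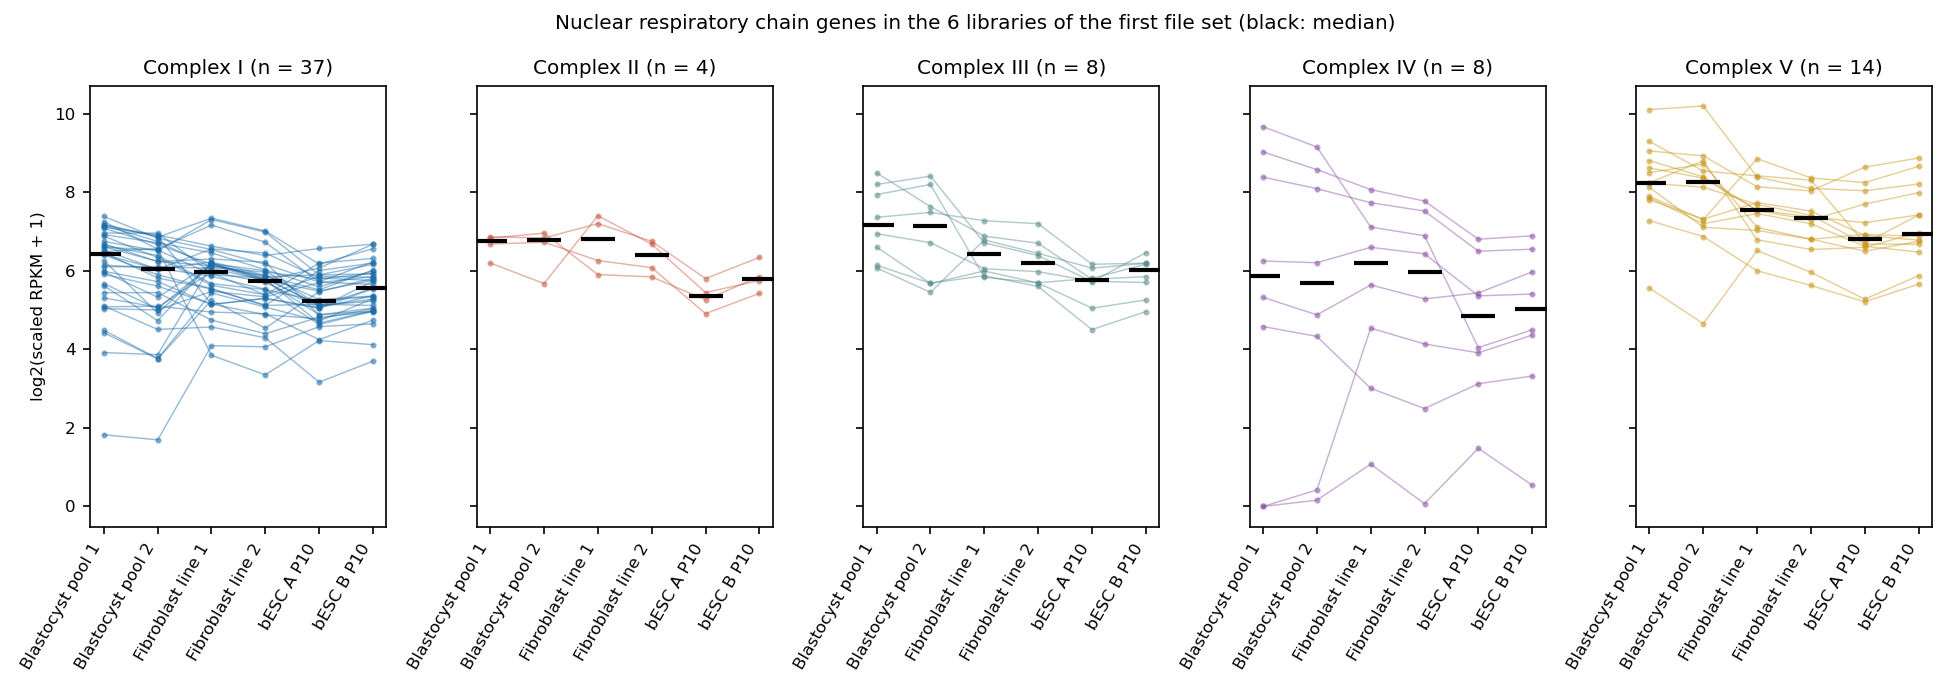
Level of each respiratory chain gene, as log2(scaled RPKM + 1) on the vertical axis, in the 2 blastocyst, 2 fibroblast and 2 passage 10 stem cell libraries, with 1 panel per complex. A thin line joins the values of 1 gene and a black bar marks the median; the median of complex V is 301 and 303 scaled RPKM in blastocysts and 111 and 121 at passage 10, an order of blastocysts that rests on the scaling.

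The first comparison asked how the chain differs between early stem cells and a differentiated cell. At passage 10, 28 of 73 genes were lower than in fibroblasts and 4 were higher, where 24.7% of all features tested were lower and 27.4% higher. A call is an adjusted p under 0.05 in limma on log2(scaled RPKM + 1), Benjamini-Hochberg over the 11931 features tested, and every change given below is a difference on that scale with its SE. The median change of the 73 genes was -0.38, against 0.03 for all features tested. Lower genes numbered 13 of 37 in complex I, 3 of 4 in complex II, 3 of 8 in complex III, 4 of 8 in complex IV and 4 of 14 in complex V. The direction of the family depended on the scaling: when RPKM were divided by their sum without the top 2 features, 15 genes were higher and 12 lower with a median of 0.04, and the share of all calls that were higher went from 52.6% to 69.9%. Relative to the median of all features the family stood at -0.41, and at -0.42 to -0.10 under the other scalings.

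Under all 5 scalings 11 genes were lower, against 16.1% of all features, and 4 were higher, against 23.8%. The 11 were NDUFA10, NDUFB6 and NDUFS5 of complex I, SDHA and SDHC of complex II, UQCRB of complex III, COX6C, COX7A2, COX7A2L and NDUFA4 of complex IV, and ATP5S. Lower calls were fewer without fibroblast line 1 or without line A at passage 10. Higher calls were fewer without any 1 of the libraries compared. Such fits leave 1 library in a group and their counts over all features are not given here. The fall can therefore not be read as particular to the chain. NDUFB6, NDUFS5, NDUFA10, SDHA, SDHC, UQCRB, COX6C, COX7A2 and COX7A2L were lower under all 5 scalings and in each of the 15 alternative analyses in which they were tested, 9 of 73 genes against 13.9% of all features. No gene was higher by that rule, against 16.4% of all features. The share of chain genes that held was thus near or under that of all features in both directions.

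The second comparison set the stem cells against the embryo stage they come from. At passage 10, 47 of 73 genes were lower than in blastocysts and 9 were higher, where 22.9% of all features were lower and 42.4% higher. The median change of the chain was -0.85 while that of all features was 0.43. All complexes contributed: 21 of 37 genes of complex I, 3 of 4 of complex II, 7 of 8 of complex III, 5 of 8 of complex IV and 11 of 14 of complex V were lower. With RPKM as deposited the direction turned, with 37 genes higher and 7 lower and a median of 0.53, and all features then had a median of 1.43, with 90.9% of calls higher against 64.9% with scaled values. Quantile normalisation gave 8 higher and 44 lower genes, with 49.3% of all calls higher. Relative to the median of all features the chain stood at -1.28, and at -1.30 to -0.78 under the other scalings. Whole blastocysts are mostly trophectoderm by cell number, and in bulk RNA fewer cells of a type and less RNA per cell cannot be told apart. Trophectoderm and hypoblast markers summed to 2177 and 1480 scaled RPKM in blastocysts against 131 and 166 at passage 10, and 7 of 8 tested were lower. Among them CDX2, listed at 0 outside the blastocysts, met the filter only through the blastocysts. The part of these markers' cell types in this difference was not tested.

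Genes lower than in blastocysts under all 5 scalings were ATP5B, COX7A2, NDUFA12, NDUFA4, UQCR10, UQCRFS1 and UQCRH, 7 of 73 against 7.22% of all features. Higher under all 5 were ATP5G2, COX7A1, NDUFA10, NDUFB5, NDUFS6, NDUFS8 and NDUFV1, 7 of 73 against 30.5%. The same 7 lower genes, again against 7.22% of all features, and 5 of the higher ones, against 27.8%, also passed in each of the 15 alternatives in which they were tested; ATP5G2 and NDUFV1 did not.

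Blastocysts and fibroblasts, the 2 controls, differed in the chain as well. In blastocysts 32 of 73 genes were higher and 11 lower than in fibroblasts, where 25.6% of all features were higher and 42.0% lower. The median was 0.43 for the chain and -0.35 for all features. With RPKM as deposited 7 genes were higher and 42 lower, with a median of -0.67 for the chain and -1.15 for all features, and 14.7% of all calls were higher against 37.9%. Without the top 2 features 44 were higher and 6 lower, with 47.1% of all calls higher, and quantile normalisation gave 39 and 6, with 51.8%. Higher under all 5 scalings, and in each of the 15 alternatives in which they were tested, were ATP5B, ATP5C1, COX7A2, COX8B, NDUFA12, NDUFC1 and UQCRFS1, 7 of 73 against 10.8% of all features by either rule. Lower under all 5 scalings were ATP5S, COX7A1, NDUFA10, NDUFS6, NDUFV1 and SDHA, 6 of 73 against 30.8%; the first 4 of these also passed in each of those alternatives, against 29.5%. Fewer genes were lower without blastocyst pool 2 or without fibroblast line 1. Those fits leave 1 library in a group, and their counts over all features are not given here. The 3 comparisons share their libraries and are not independent of each other.

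**Figure D2:**
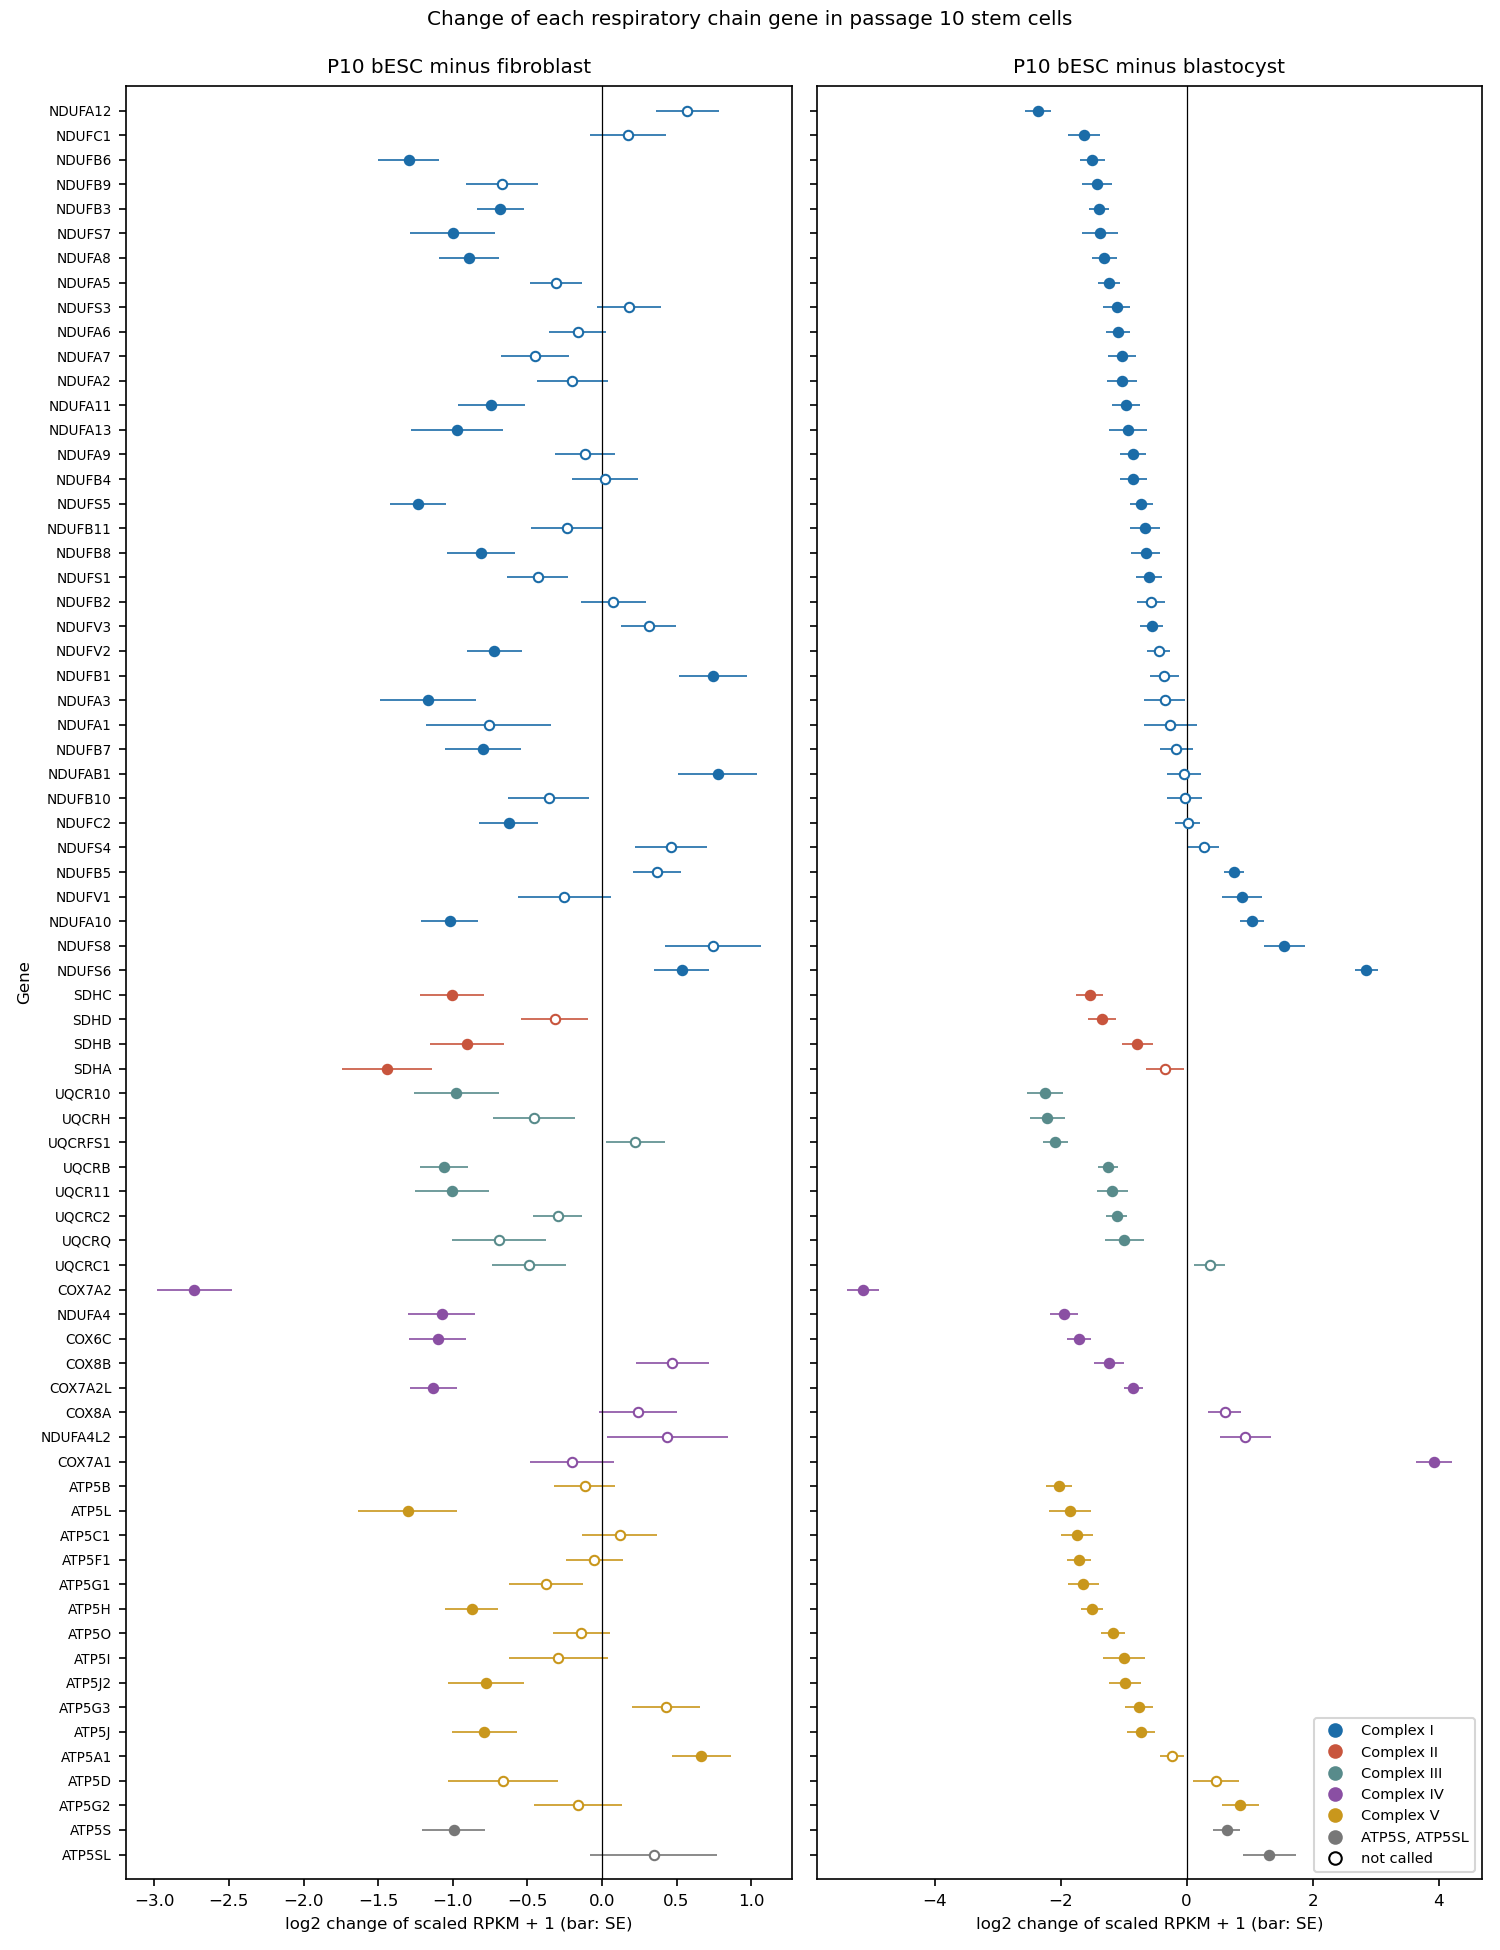
Change of 72 of the 73 genes at passage 10 against fibroblasts (left) and against blastocysts (right), as a difference of log2(scaled RPKM + 1) on the horizontal axis with its SE as a bar. Colour gives the complex and open points did not pass the test; 28 genes are lower and 4 higher on the left (12 and 15 when scaled without the top 2 features), 47 lower and 9 higher on the right (7 and 37 with RPKM as deposited).

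Complex I did not move as a block. NDUFS6, an accessory subunit of the iron-sulfur part of the enzyme, stood at 2.55 and 2.24 scaled RPKM in the blastocyst pools, 16.1 and 15.7 in the fibroblast lines and 22.9 and 24.1 at passage 10. The 3 groups did not overlap, with blastocysts lowest. NDUFS6 was higher at passage 10 than in blastocysts by 2.85 ± 0.18 (adjusted p = 4.61e-05). Against fibroblasts it was higher by 0.53 ± 0.18 (adjusted p = 0.0479), a call that was lost when any 1 of the 6 libraries was left out, with adjusted p from 0.0501 to 0.185. NDUFA12, an accessory subunit, showed the opposite order, with 89.1 and 93.7 in blastocysts, 13.4 and 9.21 in fibroblasts and 17.7 and 16.4 at passage 10. It was lower at passage 10 than in blastocysts by 2.36 on the log2 scale (SE 0.21, adjusted p = 0.00014), and its difference from fibroblasts, 0.57 ± 0.21, did not pass (adjusted p = 0.0592).

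NDUFA10, an accessory subunit of the membrane arm, stood at 14.1 and 13.6 in blastocysts, 69.8 and 52.8 in fibroblasts and 28.5 and 30.4 at passage 10. The stem cells thus lay between the controls, 1.04 ± 0.19 above blastocysts (adjusted p = 0.0031) and 1.02 below fibroblasts (log2 change -1.02 ± 0.19, adjusted p = 0.00485). NDUFB6 and NDUFS5, both accessory subunits, were below the fibroblasts at passage 10 under all 5 scalings. NDUFB6 had 102 and 74.4 in blastocysts, 77.9 and 73.5 in fibroblasts and 28.4 and 32.2 at passage 10, and changed by -1.30 ± 0.20 against fibroblasts (adjusted p = 0.00221) and -1.497 ± 0.20 against blastocysts (adjusted p = 0.000781; -0.10 as deposited). NDUFS5 had 106 and 90.2 in blastocysts, 157 and 126 in fibroblasts and 58.6 and 59.7 at passage 10, and changed by -1.24 ± 0.19 against fibroblasts (adjusted p = 0.00197). Its order against blastocysts turned with RPKM as deposited, from -0.72 ± 0.19 (adjusted p = 0.0137) to 0.69.

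The catalytic core subunits of complex I gave mixed results. NDUFS1, which carries iron-sulfur clusters in the NADH-oxidising part, stood at 32.9 and 33.3 in blastocysts, 29.9 and 29.0 in fibroblasts, and at passage 10 at 18.0 for line A and 25.8 for line B. Its change was -0.43 ± 0.21 against fibroblasts (adjusted p = 0.125) and -0.60 ± 0.21 against blastocysts (adjusted p = 0.0403; 0.77 as deposited), and without line A at passage 10 the second value was -0.35 (adjusted p = 0.224). NDUFS7, a core iron-sulfur subunit near the ubiquinone site, was lower in both, by -0.9997 ± 0.28 and -1.37 ± 0.28 (the second -0.03 as deposited), but the call against fibroblasts was lost without fibroblast line 1 (-0.86, adjusted p = 0.114), fibroblast line 2 (-1.14, adjusted p = 0.0516) or line A at passage 10 (-0.73, adjusted p = 0.136). NDUFV1, which binds NADH, had 21.5 and 12.6 in blastocysts, 42.3 and 32.8 in fibroblasts and 25.3 and 38.1 at passage 10. Its rise over blastocysts of 0.88 ± 0.31 (adjusted p = 0.0441) was lost without blastocyst pool 2 (0.52, adjusted p = 0.222), without line B at passage 10 (0.59, adjusted p = 0.219) and without either fibroblast line (adjusted p = 0.0535 and 0.054). NDUFS8, another core iron-sulfur subunit, rose over blastocysts by 1.55 ± 0.32 (adjusted p = 0.00524), from 20.5 and 12.5 to 43.4 and 55.1.

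NDUFB1 and NDUFAB1 were the other complex I genes higher than in fibroblasts, by 0.75 ± 0.23 and 0.78 ± 0.27. NDUFAB1 is the mitochondrial acyl carrier protein, which also serves fatty acid synthesis in the mitochondrion. NDUFB1 had 48.6 and 40.9 in fibroblasts and 72.3 and 78.7 at passage 10; NDUFAB1 had 45.4 and 33.7, and 63.3 and 72.4. The groups did not overlap for either gene, but both calls were lost when any 1 of the 4 libraries compared was left out, with values of 0.62 to 0.87 for NDUFB1 and 0.57 to 0.99 for NDUFAB1. Their smallest adjusted p without a library was 0.0627 and 0.0571.

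Complex II, succinate dehydrogenase, was lower in the stem cells than in fibroblasts in 3 of its 4 genes. SDHA, the flavoprotein that oxidises succinate, stood at 168 and 101 in the fibroblast lines, 42.7 and 52.9 at passage 10 and 72.5 and 50.1 in blastocysts. It fell by 1.44 on the log2 scale against fibroblasts (SE 0.30, adjusted p = 0.00732), and overlapped with blastocysts. SDHB, the iron-sulfur subunit, had 146 and 107 in fibroblasts, 54.8 and 80.1 at passage 10 and 116 and 113 in blastocysts. Its change of -0.90 ± 0.25 against fibroblasts (adjusted p = 0.0209) was lost without fibroblast line 1 (-0.68, adjusted p = 0.115) or line A at passage 10 (-0.64, adjusted p = 0.12). Its change of -0.78 ± 0.25 against blastocysts (adjusted p = 0.0286; 0.63 as deposited) was lost without line A at passage 10 (-0.51, adjusted p = 0.156) or either blastocyst pool (adjusted p = 0.0958 and 0.0907).

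The membrane anchors of complex II were SDHC and SDHD. SDHC had 75.8 and 66.7 in fibroblasts, 29.1 and 42.0 at passage 10 and 102 and 105 in blastocysts. It was below both controls, by -1.003 ± 0.21 (adjusted p = 0.0079) and -1.54 ± 0.21 (adjusted p = 0.000872). With RPKM as deposited its change against blastocysts was -0.13. SDHD had 58.9 and 56.5 in fibroblasts, 37.4 and 56.8 at passage 10 and 113 and 124 in blastocysts, and passed only against blastocysts (-1.34 ± 0.23, adjusted p = 0.00202), with 0.07 as deposited.

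In complex III the largest differences were between blastocysts and the cultured cells. UQCRFS1, the Rieske iron-sulfur protein that takes electrons from ubiquinol, stood at 245 and 293 in blastocysts, 56.0 and 50.9 in fibroblasts and 55.0 and 71.0 at passage 10. It was lower at passage 10 than in blastocysts by -2.08 ± 0.20 (adjusted p = 0.00018), and its difference from fibroblasts was 0.22 ± 0.20 (adjusted p = 0.385). UQCR10 and UQCRH, small supernumerary subunits, changed by -2.25 ± 0.29 and -2.21 ± 0.28 against blastocysts. UQCR10 fell from 359 and 198 in blastocysts to 54.1 and 56.8, with 117 and 103 in fibroblasts. UQCRB, a subunit close to the ubiquinone site, stood at 164 and 178 in blastocysts, 154 and 146 in fibroblasts and 70.8 and 72.3 at passage 10. Its changes were -1.06 ± 0.16 against fibroblasts (adjusted p = 0.00196) and -1.24 ± 0.16 against blastocysts (adjusted p = 0.000632), the second of which turned to 0.17 as deposited. The core proteins differed: UQCRC2 was lower than in blastocysts by -1.11 ± 0.17 (adjusted p = 0.00118; 0.30 as deposited), and UQCRC1 passed in neither comparison, at 0.37 ± 0.25 against blastocysts and -0.49 ± 0.25 against fibroblasts.

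Complex IV held the extremes of the family, in the isoform pair of subunit VIIa. COX7A2, the isoform found in most tissues, stood at 813 and 568 in blastocysts, 138 and 118 in fibroblasts and 15.5 and 21.6 at passage 10. The 3 groups were far apart, and the change was -5.14 ± 0.25 against blastocysts (adjusted p = 2.31e-05) and -2.73 ± 0.25 against fibroblasts (adjusted p = 0.000276). COX7A1, the heart and muscle isoform, was listed at 0 in blastocyst pool 1, stood at 0.34 in pool 2, at 22.3 and 16.6 in fibroblasts and at 14.1 and 19.6 at passage 10. It was higher at passage 10 than in blastocysts by 3.93 ± 0.28 (adjusted p = 6.36e-05), a value that depends on the pseudocount because the blastocyst levels are near 0, and differed by -0.20 ± 0.28 from fibroblasts (adjusted p = 0.588). COX7A1 thus made 0.0% and 0.06% of the summed RPKM of both isoforms in blastocysts, 13.9% and 12.3% in fibroblasts and 47.5% and 47.6% at passage 10. How reads shared with near-identical copies of these small genes were counted is not given in the sources used here, so the COX7A2 levels carry that uncertainty.

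Muscle markers and fibroblast markers were also higher at passage 10 than in blastocysts. The 7 muscle markers with values summed to 17.0 and 42.4 scaled RPKM at passage 10, 2.5 and 2.4 in blastocysts and 1.3 and 1.8 in fibroblasts. All 4 that were tested, DES, ACTC1, ACTA1 and TNNI1, were higher at passage 10 than in either control. Of all features 27.4% were higher than in fibroblasts and 42.4% than in blastocysts. A gene was tested only at 1 or more in at least 2 libraries. ACTA1, at 0 in both blastocyst pools and 0.38 and 0.67 in fibroblasts, met this only through passage 10. DES and TNNI1 also met it only there, since the control sums beyond ACTC1 and ACTA1 leave both under 1 in every control. The calls of ACTA1, DES and TNNI1 thus carry no weight. ACTC1, at 2.20 and 2.26 in the blastocyst pools and 0.67 and 0.37 in fibroblasts, met the filter in blastocysts as well. MYOG, the factor that drives muscle differentiation, was listed at 0 in all 6 libraries and TNNT2 stood at 0.06 and 0. Fibroblast markers summed to 94.1 and 210.0 at passage 10 against 6.7 and 7.4 in blastocysts. Of these 10, 6 were higher, where 42.4% of all features were. In the fibroblast lines COX7A1 stood at 22.3 and 16.6 and the fibroblast markers summed to 6045 and 6172. The part of either cell type in the COX7A1 level was not tested.

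The other complex IV genes were lower in the stem cells or did not pass. COX6C had 334 and 272 in blastocysts, 212 and 183 in fibroblasts and 89.5 and 92.8 at passage 10, a change of -1.10 ± 0.19 against fibroblasts (adjusted p = 0.00329). NDUFA4, first assigned to complex I and now known as a complex IV subunit, had 520.3 and 381 in blastocysts, 268 and 218 in fibroblasts and 111 and 118 at passage 10. It changed by -1.07 ± 0.22 against fibroblasts (adjusted p = 0.00714), and without fibroblast line 1 by -0.93 (adjusted p = 0.0509). COX7A2L, which helps join complexes III and IV into supercomplexes, had 75.2 and 72.8 in blastocysts, 95.9 and 85.4 in fibroblasts and 40.1 and 41.5 at passage 10, lower by -1.13 ± 0.16 against fibroblasts (adjusted p = 0.00142). COX8A, the isoform of subunit VIII found in most tissues, differed by 0.24 ± 0.26 and 0.60 ± 0.26 from fibroblasts and blastocysts, and did not pass in either. COX8B, the muscle isoform, stood at 22.9 and 19.1 in blastocysts, against 7.04 and 4.64 in fibroblasts and 7.72 and 8.999 at passage 10 (a change against blastocysts of -1.23 ± 0.25, or 0.09 as deposited), and made 37.0% and 40.2% of the summed RPKM of both isoforms there, against 12.6% and 10.9% in fibroblasts and 15.4% and 12.7% at passage 10.

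Complex V held the highest levels of the chain in any library, those of ATP5B in blastocysts. ATP5B, the catalytic beta subunit, stood at 1101 and 1172 in blastocysts, 334 and 273 in fibroblasts and 262 and 295 at passage 10. The blastocyst pools were far above all other libraries, and fibroblasts and stem cells overlapped. The change at passage 10 was -2.02 ± 0.21 against blastocysts (adjusted p = 0.000237) and -0.12 ± 0.21 against fibroblasts (adjusted p = 0.674). ATP5A1, the alpha subunit that alternates with beta in the catalytic ring, behaved differently, with 529.7 and 486 in blastocysts, 281 and 262 in fibroblasts and 398 and 468 at passage 10. It was higher than in fibroblasts by 0.67 ± 0.19 (adjusted p = 0.027), a call lost when any 1 of the 4 libraries compared was left out (0.55 to 0.78, adjusted p from 0.0549 to 0.133), and differed from blastocysts by -0.23 ± 0.19 (adjusted p = 0.327). ATP5C1 and ATP5F1, of the central and peripheral stalks, changed by -1.74 ± 0.25 and -1.71 ± 0.19 against blastocysts and by 0.12 ± 0.25 and -0.05 ± 0.19 against fibroblasts.

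The c subunit of the ATP synthase, which forms the rotating ring in the membrane, is made from 3 genes that encode the same mature protein. ATP5G2 stood at 237 and 157 in blastocysts, 463 and 329 in fibroblasts and 302 and 403 at passage 10. Its rise over blastocysts, 0.85 ± 0.30 (adjusted p = 0.0395), was lost without blastocyst pool 2 (0.56, adjusted p = 0.204) or line B at passage 10 (0.65, adjusted p = 0.179). ATP5G1 had 154 and 116, 63.1 and 48.4, and 36.1 and 49.6 in the same order, a change of -1.64 ± 0.25 against blastocysts (adjusted p = 0.00126). ATP5G3 had 446 and 336, 185 and 156, and 207 and 253, a change of -0.76 ± 0.23 (adjusted p = 0.0234; 0.67 as deposited). This call was lost without blastocyst pool 1 (-0.55, adjusted p = 0.114) or line A at passage 10 (-0.61, adjusted p = 0.117). Shares within the 3 genes do not depend on the scaling: ATP5G2 made 28.3% and 25.7% of their summed RPKM in blastocysts, 65.1% and 61.7% in fibroblasts and 55.4% and 57.1% at passage 10, and ATP5G3 53.3% and 55.2%, 26.0% and 29.2%, and 37.9% and 35.8%.

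**Figure D3:**
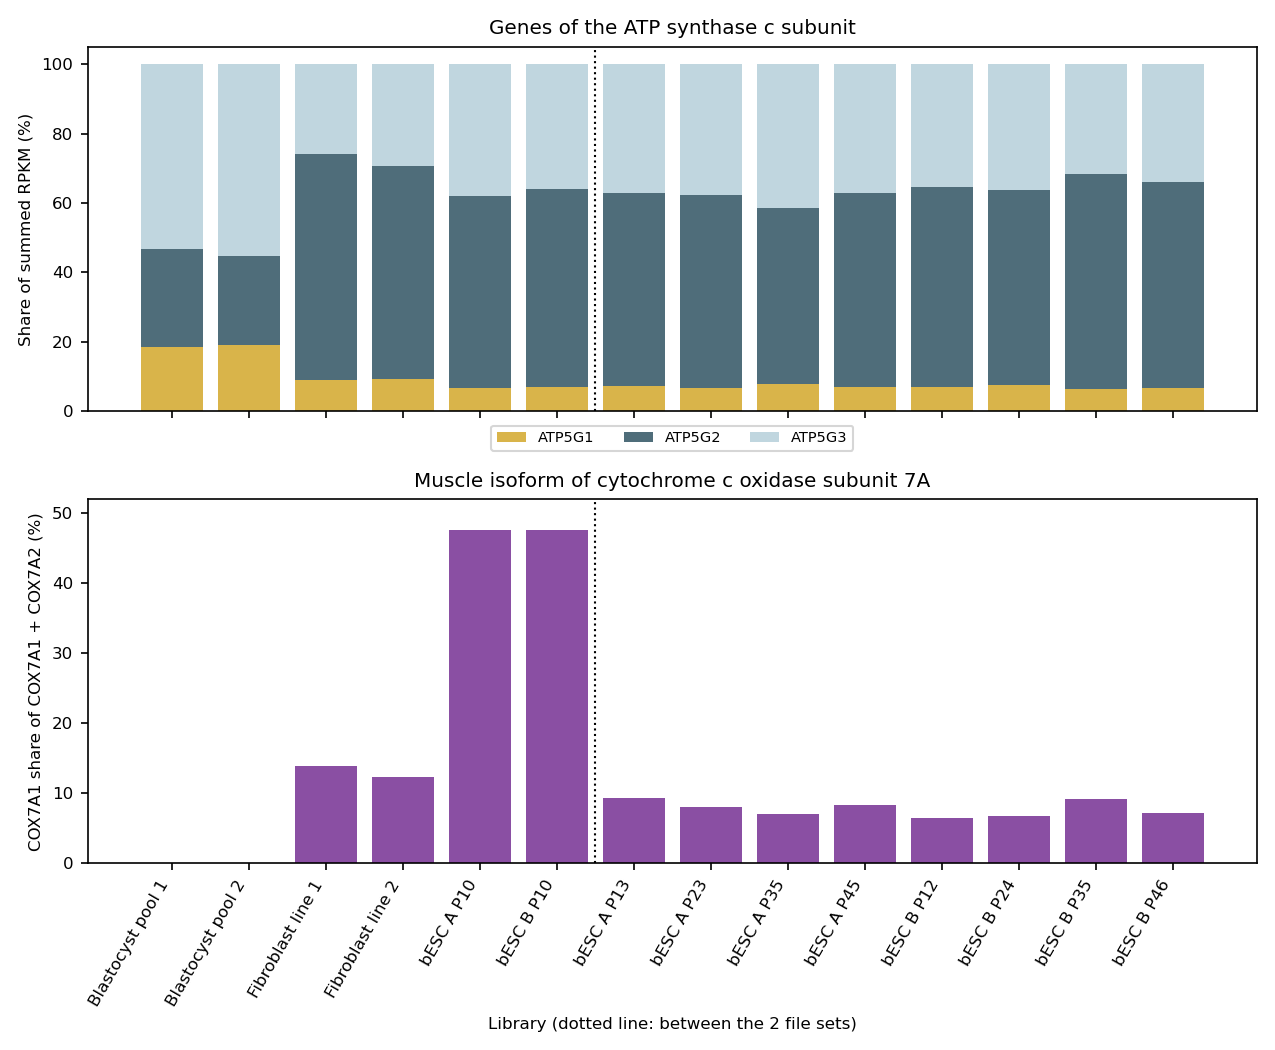
Share of the summed RPKM (vertical axes, %) of each ATP synthase c subunit gene (top, stacked to 100%) and of COX7A1 within COX7A1 and COX7A2 (bottom) in each of the 14 libraries, 1 bar per library. The COX7A1 share is 47.5% and 47.6% at passage 10, 13.9% or less in the controls and 6.51% to 9.38% at later passages.

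Genes that build and serve the chain were described by lists. The counts below stand against the same shares of all features: 27.4% higher and 24.7% lower than in fibroblasts, and 42.4% higher and 22.9% lower than in blastocysts. Of 26 assembly factors tested, 2 were higher and 4 lower at passage 10 than in fibroblasts, and 5 higher and 4 lower than in blastocysts, with medians of -0.18 and 0.15. SCO2, a copper chaperone of complex IV, was at 0.74 and 1.14 in blastocysts, 4.62 and 4.08 in fibroblasts and 6.96 and 6.51 at passage 10, and rose over blastocysts by 2.00 ± 0.23 (adjusted p = 0.000366). NUBPL, which delivers iron-sulfur clusters to complex I, fell from 10.2 and 10.96 in blastocysts to 2.13 and 2.32 (-1.85 ± 0.21, adjusted p = 0.000376). Of 6 mitochondrially encoded subunits tested, 1 was lower and none higher than in fibroblasts, and 3 were lower and 1 higher than in blastocysts, with medians of -0.27 and -1.23.

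Of 13 regulators of mitochondrial biogenesis 5 were higher than in fibroblasts and 0 lower, with a median of 0.38. TFAM, which packs and transcribes mitochondrial DNA, stood at 5.81 and 8.37 in fibroblasts, 26.3 and 18.3 at passage 10 and 15.8 and 21.9 in blastocysts, a rise of 1.52 ± 0.28 over fibroblasts (adjusted p = 0.0045). POLRMT, the mitochondrial RNA polymerase, rose by 0.98 ± 0.22. Against blastocysts 2 of the 13 were higher and 3 lower. Among the lower was ESRRB, an orphan nuclear receptor of naive pluripotent cells. It stood at 22.2 and 19.9 in blastocysts and at 0.06 and 0.27 at passage 10, with fibroblasts listed at 0. ESRRB thus met the filter only through the blastocysts, so its call carries no weight.

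The TCA cycle, which feeds the chain, was lower in 7 of 17 genes and higher in 1 against fibroblasts, and lower in 9 and higher in 4 against blastocysts, with medians of -0.40 and -0.71. IDH3A, of the NAD-dependent isocitrate dehydrogenase, fell from 133 and 152 in blastocysts and 106 and 133 in fibroblasts to 18.1 and 17.6 at passage 10, by -2.93 ± 0.18 and -2.67 ± 0.18. IDH2, the NADP-dependent enzyme of the same step, rose from 3.56 and 2.66 in blastocysts and 23.2 and 27.7 in fibroblasts to 80.9 and 77.9, by 4.30 ± 0.20 and 1.61 ± 0.20. CS, citrate synthase, stood at 560.3 and 473 in blastocysts, 61.3 and 45.8 in fibroblasts and 51.5 and 66.1 at passage 10, a change of -3.12 ± 0.23 against blastocysts. These changes of IDH3A, IDH2 and CS all passed under the 5 scalings. Of 7 carriers tested, 1 was lower than in fibroblasts, SLC25A4, the muscle form of the ADP/ATP carrier, and 1 was higher and 2 lower than in blastocysts. SLC25A6, another form of that carrier, rose from 88.4 and 67.5 in blastocysts to 235.5 and 363, by 1.91 ± 0.30 (adjusted p = 0.00142), with 549 and 386 in fibroblasts. VDAC2, an outer membrane channel, fell from 1196 and 1522 in blastocysts to 86.6 and 138. Of 18 genes of import and housekeeping, 2 rose and 2 fell against fibroblasts, and 5 rose and 8 fell against blastocysts.

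Passage 10 and later passages come in separate file sets, so their values are set side by side without a test. Of the 57 genes in both, 5 differed by more than 2-fold between the mean at passage 10 and the mean of the 8 later libraries. This was 8.77%, against 8.63% of 9422 names. These names were the ones in both sets, without a copy suffix, with a mean of 1 or more at passage 10 and later. All 57 genes met this limit, NDUFA4L2 with a passage 10 mean of 1.12. All 5 genes past 2-fold were higher later: UQCRQ 2.06-fold, NDUFB1 2.33-fold, NDUFA12 5.37-fold, COX7A2 11.3-fold and NDUFA4L2 20.0-fold. The median log2 ratio was 0.34 for the chain and 0.02 for the 9422 names. COX7A2 was at 15.5 and 21.6 at passage 10 and at 177 to 235 later, above the fibroblasts in every later library, and NDUFA12 went from 17.7 and 16.4 to between 78.3 and 106. COX7A1 stayed within 14.4 to 20.5, so its share of the isoform pair was 6.51% to 9.38% later. ATP5S had the lowest ratio, 0.72. Nothing states that both file sets were made in 1 run, and these differences cannot be told apart from a difference between the sets.

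**Figure D4:**
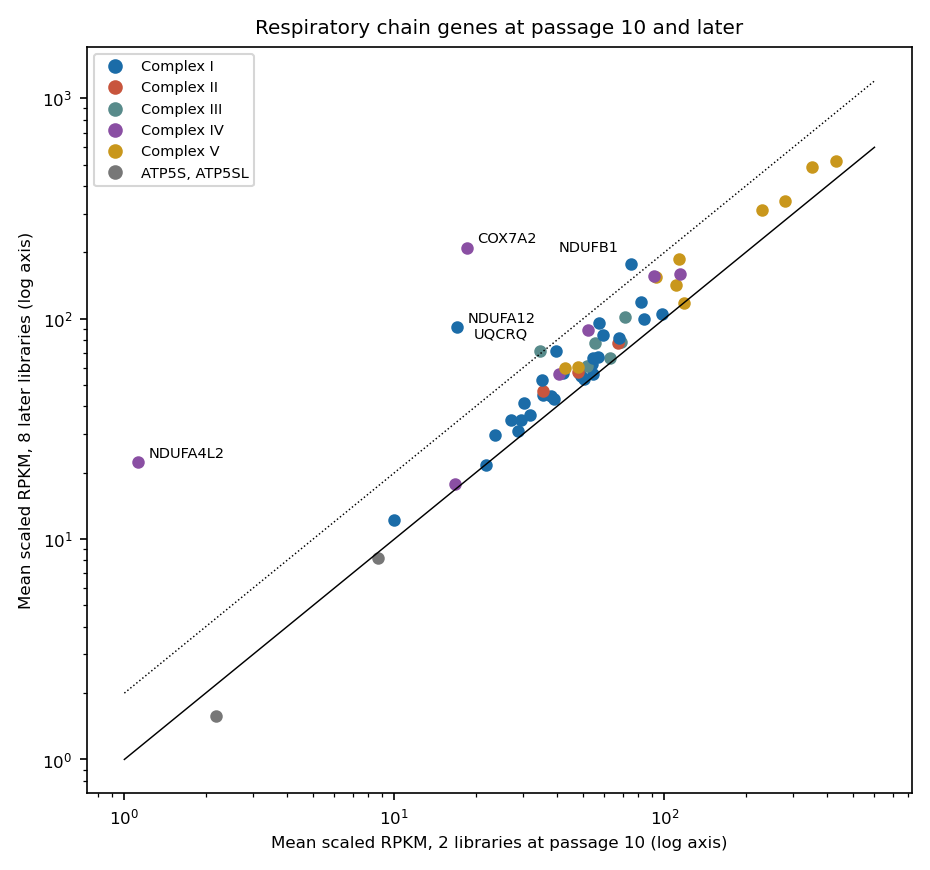
Mean scaled RPKM of the 57 genes with values in both file sets, at passage 10 (horizontal, log axis, 2 libraries) and at later passages (vertical, log axis, 8 libraries), coloured by complex. The solid line marks equal levels and the dotted line 2-fold higher later; the 5 named genes, with NDUFA4L2 at 20.0-fold and COX7A2 at 11.3-fold, differ by more than 2-fold.

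No chain gene passed the test across later passages. Among 61 genes tested of 12454 features, limma called 0 between the lines (0.00803% of all features higher in line B and 0.0% lower), 0 for the slope per 10 passages (0.0% in either direction) and 0 for the difference of slopes (0.0%). At an unadjusted p under 0.05 there were 2 genes for the line, 3.28% against 6.54% of all features, 0 for the slope, against 4.61%, and 0 for the difference of slopes, against 0.57%. The 2 were NDUFA12, 98.97 ± 9.82 in line B and 84.2 ± 5.57 in line A (SD, 4 libraries each), a difference of 0.23 ± 0.08, and ATP5G2, 533 ± 32.0 and 446 ± 60.7, a difference of 0.27 ± 0.11; the adjusted p was 0.72 for both. Line differences ran from -0.09 to 0.27 with a median 95% interval of 0.22 to either side, and slopes from -0.05 to 0.31 with 0.09 to either side, so differences of that size were not detectable. The median coefficient of variation over the 8 libraries was 9.47% for the 59 genes at a mean of 10 or more and 9.8% for 5427 such features.

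The isoforms measured only at later passages were those of complex IV. COX4I1, the common form of subunit IV, ran from 97.0 to 135 scaled RPKM, and COX4I2, the form induced by low oxygen in lung, from 0.196 to 0.493, or 0.2% to 0.41% of the pair. COX6B1 ran from 83.4 to 115 and COX6B2, the testis form, from 9.27 to 21.0, or 10.0% to 15.8% of the pair. COX6A2, the muscle form of subunit VIa, was listed at 0 in 6 of the 8 libraries. COX5A ran from 93.3 to 136.

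NDUFA4L2, a paralogue of NDUFA4 known to be induced by hypoxia, varied most of the 59 chain genes at a mean of 10 or more. It stood at 7.90, 35.3, 15.9 and 36.1 in line A at passages 13, 23, 35 and 45, and at 22.7, 11.5, 14.9 and 35.1 in line B at passages 12, 24, 35 and 46. Its coefficient of variation was 51.8%, at percentile 99.1 of features, and the highest library had 4.56 times the lowest, with no order by passage in either line. Its slope, 0.31 ± 0.18 per 10 passages, did not pass (adjusted p = 0.967). COX6B2 came next among those 59, at 27.3%, with 9.27, 21.0, 11.3 and 19.8 in line A and 14.9, 15.98, 13.9 and 20.3 in line B. The 3 libraries highest in NDUFA4L2, line A at passages 23 and 45 and line B at passage 46, were also the 3 highest in COX6B2.

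Levels of hypoxia-induced genes are given beside NDUFA4L2. The mean level of 13 such genes, on the log2(scaled RPKM + 1) scale, was 4.14, 5.93, 4.66 and 5.93 in line A and 5.71, 5.28, 5.09 and 5.90 in line B, none of them at 0. BNIP3, a mitophagy receptor of that list, stood at 73.7, 361, 146 and 432 in line A and 312, 174, 127 and 341 in line B. The same 3 libraries were highest in the list mean and in BNIP3, and line A at passage 13 was lowest in NDUFA4L2, COX6B2, the list mean and BNIP3. The order of the other libraries differed: line B at passage 24 had a higher list mean than line A at passage 35 and less NDUFA4L2, and EGLN3, a prolyl hydroxylase of the list, was lowest in line A at passage 23, at 27.4, and highest in line B at passage 35, at 36.8. The mean of 12 trophectoderm and hypoblast markers was also highest in the same 3 libraries, at 2.01, 1.99 and 2.08, and lowest in line A at passage 13, at 1.58. KRT18, a keratin of that list, stood at 227, 186 and 242 there and at 63.3. By the summed scaled RPKM of the list the order differed, with line B at passage 35, at 562, above line A at passage 45, at 554. CDX2, another gene of the list, was listed at 0 in all 8 libraries. The part of oxygen supply or of these cell types in the levels of NDUFA4L2 was not tested. At passage 10 NDUFA4L2 stood at 1.79 and 0.46, in the fibroblasts at 1.11 and 0.05 and in the blastocysts at 0 and 0.12.

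**Figure D5:**
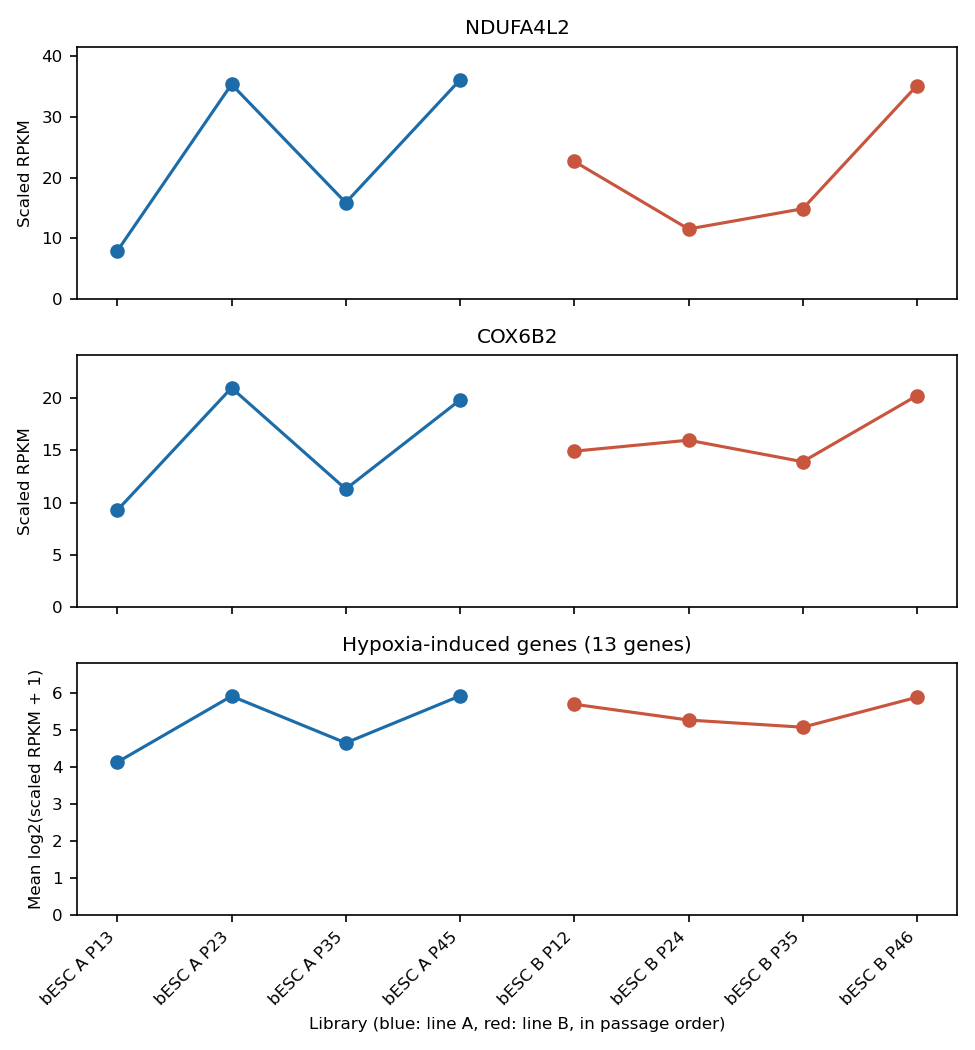
Scaled RPKM of NDUFA4L2 (top) and COX6B2 (middle) and the mean log2(scaled RPKM + 1) of 13 hypoxia-induced genes (bottom) in the 4 later libraries of line A (blue) and of line B (red), in passage order, 1 point per library. In all 3 panels line A at passages 23 and 45 and line B at passage 46 are the 3 highest libraries and line A at passage 13 is the lowest.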

How the data were processed

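Per the labels' protocols, total RNA was extracted with an RNeasy kit and libraries were made with a TruSeq RNA kit. Each library has 1 file, in which the authors deposited RPKM per gene without counts. The submitters' processing notes name UMD3.1 and edgeR, without roles or versions. Aligner, counter and annotation: not given in the sources used here. The 6 files of controls and passage 10 and the 8 later files have different feature lists and were fitted separately. Rows with unreadable names (26), dates for names (25) or blanks were left out of the first set, and 26 features named by a date in some files of the second set were left out. Each library was scaled by its median ratio to the geometric mean of all 14. log2(scaled RPKM + 1) was fitted with limma 3.58.1 (R 4.3.3, mean-variance trend, two-sided) for features at 1 or more in at least 2 libraries: 3 groups in the first set; line and passage number, then with their interaction, in the second. Deviations of the 2 lines at like passage stages had correlations of 0.16, 0.103, 0.309 and 0.591. The like stage was the best match for 2 of 4 libraries of line A and 3 of 4 of line B. Stage was also used as a block. The script was tested on simulated data. For passage 10 against fibroblasts it recovered 0.0% of 1.25-fold, 6.0% of 1.5-fold, 34.0% of 2-fold and 96.0% of 4-fold changes. Most changes of 2-fold or less would thus be missed there. Tables were read with pandas 2.3.3 (Python 3.11.15).

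Members and gene lists were chosen with earlier results of these data known. Per comparison the named genes were the 6 called members with the largest change in each direction at a mean of 10 or more, fixed core subunits and isoform pairs, and, from each list, the 3 called genes of lowest adjusted p; other genes were named after their values were seen. 1 gene is counted but not reported here by name. Of the 79 members 63 matched RefSeq by symbol and 16 by synonym. Alternatives were other scalings, a pseudocount of 0.1, other filters, no trend, a replicate block and leaving out each library; those of the slope difference were added after seeing the data.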

Additional observations from a re-analysis of the deposited data

Results flagged for a closer look

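The 25 members with fixed names were searched at later passages for a library far from the other 3 of its line. Of 50 groups 5 held one, and chance gives about 1 in 20 where a group holds no tied values. In line B at passage 35 COX7A2L stood at 51.3 scaled RPKM where the highest of the line was 58.6, SDHA at 53.0 where the highest was 60.7, and UQCRC2 at 54.6 where the highest was 66.3; in each case this library was the lowest and its gap to the next was at least 0.832 of the range. COX6A2 stood at 0.0689 in line A at passage 45 and 0.0636 in line B at passage 35, with the other libraries of each line listed at 0. With the others at 0 any value above 0 is flagged. The COX6A2 flags were thus fixed in advance, and the count of 5 cannot be set against 1 in 20.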

How the results depend on the processing

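Depth in reads is unknown and each group of the first set has 2 libraries, which limits every call. The 4 genes higher at passage 10 than in fibroblasts numbered 11 with RPKM as deposited, 15 without the top 2 features, 10 with quantile normalisation, 2 with a pseudocount of 0.1, 2 with no filter and 2 with the replicate block; the 28 lower numbered 12 without the top 2 features and 14 with quantile normalisation. Against blastocysts the 9 higher and 47 lower numbered 37 and 7 as deposited, and the higher 5 with no filter. Blastocysts against fibroblasts gave 7 higher and 42 lower as deposited in place of 32 and 11, and 6 lower without the top 2 features and 6 with quantile normalisation. Leaving out 1 library gave 0 to 3 higher and 10 to 31 lower against fibroblasts, 6 to 9 and 33 to 44 against blastocysts, and 22 to 32 and 4 to 14 between the controls.

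With RPKM as deposited, which lowers the blastocyst values, 29 of the 47 lower calls against blastocysts and 19 of the 32 higher calls between the controls changed sign. Among the members named by rule in the same comparison, changes against blastocysts reversed for ATP5G3 (0.67), COX7A2L (0.56), COX8B (0.09), NDUFS1 (0.77), SDHB (0.63), SDHD (0.07) and UQCRC2 (0.30). Between blastocysts and fibroblasts they reversed for ATP5A1 (-0.28), NDUFA4 (-0.31), SDHD (-0.15) and UQCRC2 (-0.36). NDUFS5 and UQCRB, not named by rule against blastocysts, also reversed there, as given above. Named members kept direction and call in 61 of 90 values with a library left out against fibroblasts, 122 of 138 against blastocysts and 114 of 126 between the controls, and in 119 of 135, 188 of 207 and 176 of 189 other values. The cause of the changes with filter, pseudocount and block was not tested.

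Letters A and B of blastocyst pools, fibroblast lines and stem cell lines share only a name: the correlations of their deviations were 0.169, -0.072 and -0.097. The block on them gave 2 higher and 29 lower against fibroblasts, 8 and 45 against blastocysts, and 31 and 13 between the controls. The replicate block on passage stage gave 0 calls in either direction, as did the 10 stem cell libraries together and the later libraries without line A at passages 13 and 35, so the block changed no call at later passages.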

Other observations

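Copies with a numbered suffix, which the choice of members leaves out, include subunits with no other value in the first file set. COX7B_3 stood at 485 and 359 scaled RPKM in blastocysts, 143 and 126 in fibroblasts and 185 and 184 at passage 10, and COX7C_3 at 350.0 and 216, 354 and 239, and 277 and 194. COX7B_3 was thus above the fibroblasts at passage 10, where COX7A2 was below them. The lower copies of each gene did not exceed 46.1 scaled RPKM for COX7B and 2.68 for COX7C. ATP5E, the epsilon subunit of the ATP synthase, was split over 2 entries, at 98.6 and 77.1, 53.3 and 104, and 31.0 and 32.4 for the first and 38.8 and 13.9, 246 and 137, and 37.3 and 32.4 for the second. These copies were not tested.

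Hypoxia-induced genes were also compared between passage 10 and the controls. Of 11 tested, 2 were higher and 5 lower at passage 10 than in fibroblasts, where 27.4% and 24.7% of all features were. Against blastocysts 2 were higher and 3 lower, where 42.4% and 22.9% of all features were. In blastocysts 2 were higher and 7 lower than in fibroblasts, where 25.6% and 42.0% of all features were. VEGFA, an angiogenic growth factor, stood at 9.49 and 11.4 in fibroblasts, 4.31 and 8.21 in blastocysts, 0.75 and 0.72 at passage 10 and 6.93 to 23.6 later. SLC2A1, the main glucose transporter, rose over fibroblasts by 2.11 ± 0.16 (limma, adjusted p = 0.000144) while NDRG1, a stress-induced gene, fell by 3.28 (SE 0.29, adjusted p = 0.000253).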
